A study of Rattus norvegicus with 2 samples.

Results

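The genes of the muscle basement membrane were followed through 1 scRNA-seq library of a rat-mouse chimera and 1 library of a Sprague-Dawley (SD) rat. They are the collagen IV chains Col4a1 and Col4a2, the laminin chains Lama2, Lama4, Lama5, Lamb1 and Lamc1, the nidogens Nid1 and Nid2, and perlecan, Hspg2. The 10 genes were taken by name, and matched 9 of 23373 rat rows and all 10 on the 25906 mouse rows of the chimera. No rat row carries the name Hspg2. The rat row named AABR07073181.1, which RefSeq lists as an older symbol of rat Hspg2, is described separately as the rat Hspg2 row and is not counted among the rat members.

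The study asked which cell types of the chimera's skeletal muscle were formed by mouse cells, with SD rat muscle beside it. The chimera was an SD rat whose embryo received mouse induced pluripotent stem cells (iPSCs) at the morula stage. These iPSCs carried the Dmd mdx allele in edited form and a Pax7-nGFP reporter, and the host's own satellite cells were left in place. Both libraries came from skeletal muscle of the whole body, digested with collagenase and sorted for living cells with a viability dye, and the SD rat received no iPSCs. The labels give neither the age nor the sex of the animals. With 1 animal and 1 library per group, an animal, a library and a condition cannot be told apart, so differences below are given as sizes with counting error and without p-values.

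A basement membrane is a thin sheet of matrix under endothelium and around muscle fibres, mural cells, Schwann cells and fat cells. It is built of 2 networks, one of laminin trimers that bind cell surface receptors and one of collagen IV trimers that stiffen the sheet. Nidogens and perlecan tie the networks together. Laminin trimers take 1 alpha, 1 beta and 1 gamma chain, and the alpha chain sets which receptors they bind. Lama2 is the alpha chain of the muscle fibre sheet and is lost in a congenital muscular dystrophy, whereas Lama4 and Lama5 are known as the alpha chains of vessel walls.

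Col4a1 and Col4a2 lie head to head on rat chromosome 16. Their RefSeq starts (build GRCr8, which is not the build of the deposited files) are 77 bases apart, so that a single stretch of 76 bases lies before both. That stretch and the 100 bases before the starts of the 3 laminin alpha chains are printed because these genes separate the cell classes below, with Col4a1 and Col4a2 side by side and the alpha chains apart. The stretches are chr16:84885521-84885596 (plus strand), chr1:19492046-19492145 (plus), chr20:43946798-43946897 (plus) and chr3:187695975-187696074 (minus). Capitals mark a GC box, GGGCGG or its reverse complement CCGCCC.
Col4a1: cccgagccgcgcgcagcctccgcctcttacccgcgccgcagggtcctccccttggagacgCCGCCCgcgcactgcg
Lama2: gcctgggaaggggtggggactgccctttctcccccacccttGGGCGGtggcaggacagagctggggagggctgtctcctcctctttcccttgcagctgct
Lama4: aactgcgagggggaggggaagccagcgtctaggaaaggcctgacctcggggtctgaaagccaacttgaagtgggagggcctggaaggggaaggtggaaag
Lama5: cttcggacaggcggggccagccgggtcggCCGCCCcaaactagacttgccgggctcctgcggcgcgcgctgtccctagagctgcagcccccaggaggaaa
The shared collagen stretch held 1 GC box and a GC content of 78.9%, the Lama2 and Lama5 stretches held 1 each at 67% and 72%, and the Lama4 stretch held none at 61%. Among 33469 rat windows, 18.1% held a GC box in the last 76 bases and 21.6% in the last 100, and the median GC content was 53.9% and 54%. The letters CCAAT and TATAAA, searched on both strands, were in none of the 4 stretches. They stand in 17.1% and 5.78% of all windows of 100 bases. Windows of 9 of the 10 genes were in the table, and Nid2 was not among them.

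Transcripts are counted as unique molecular identifiers (UMIs), and levels are UMIs per 1e6 UMIs (CPM) of the cells' own species, summed over the cells of a class. Brackets give exact 95% intervals, which cover counting error only. The kit reads 3′ ends, so that CPM compares 1 gene between classes and not 1 gene with another. After filters, 8816 SD rat and 11730 chimera barcodes remained. At most 20% of UMIs on mouse rows made 8230 of the latter rat cells and at least 80% made 1847 mouse cells, while 1653 lay between. The deposited libraries held 70957559 and 118872850 UMIs, and 43 barcode sequences stood in both. Cells were clustered without the basement membrane genes and named from marker lists. The classes were fibro-adipogenic progenitors (FAPs, the stromal cells between fibres), tenocytes or fibroblasts, endothelial cells (ECs), lymphatic endothelial cells (LyECs), pericytes or smooth muscle cells (mural cells), myogenic progenitors (MPs, which include satellite cells), myocytes, Schwann or glial cells and blood cell classes, each "-like" by its markers. In order SD rat, chimera rat and chimera mouse, there were 3199, 2605 and 125 FAPs, 1571, 781 and 1082 ECs, 357, 420 and 47 MPs, and 147, 100 and 25 Schwann cells. Mural cells numbered 383 and 338 and LyECs 110 and 82 in SD rat and chimera rat, and no mouse cluster took either name. The myocyte barcodes carried the skeletal muscle markers, at 379549 CPM in SD rat.

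Lymphocyte barcodes, set beside the other classes, show what level free RNA or joined cells can reach for genes that lymphocytes do not make. In SD rat, B cells held Col4a1 at 273 CPM, with 45 of their 71 UMIs in 1 barcode, and T or NK cells at 201 CPM, with 45 of 138 UMIs in 1 barcode. Without these barcodes the levels were 106 and 140 CPM. The chimera's rat B and T or NK cells held it at 48.6 and 25.6 CPM. SD rat B cells held Lama2 at 108 CPM, with 22 of 28 UMIs in 1 barcode, and at 24.5 CPM without it. For Lamc1 they were not read as background, since mouse B cells held 91 mouse-row UMIs of it against 12 of Col4a1. SD rat myocytes lay under both lymphocyte classes for every listed gene but Lama5, with Col4a1 at 56.1 CPM and Lama2 at 15.5 CPM. Chimera rat myocytes did not, with Lama2 at 18.2 CPM against 15.2 in B cells and 10.0 in T or NK cells. Of these 86 myocyte Lama2 UMIs, 21 stood in 1 barcode, and the level without it is not given here.

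**Figure D1:**
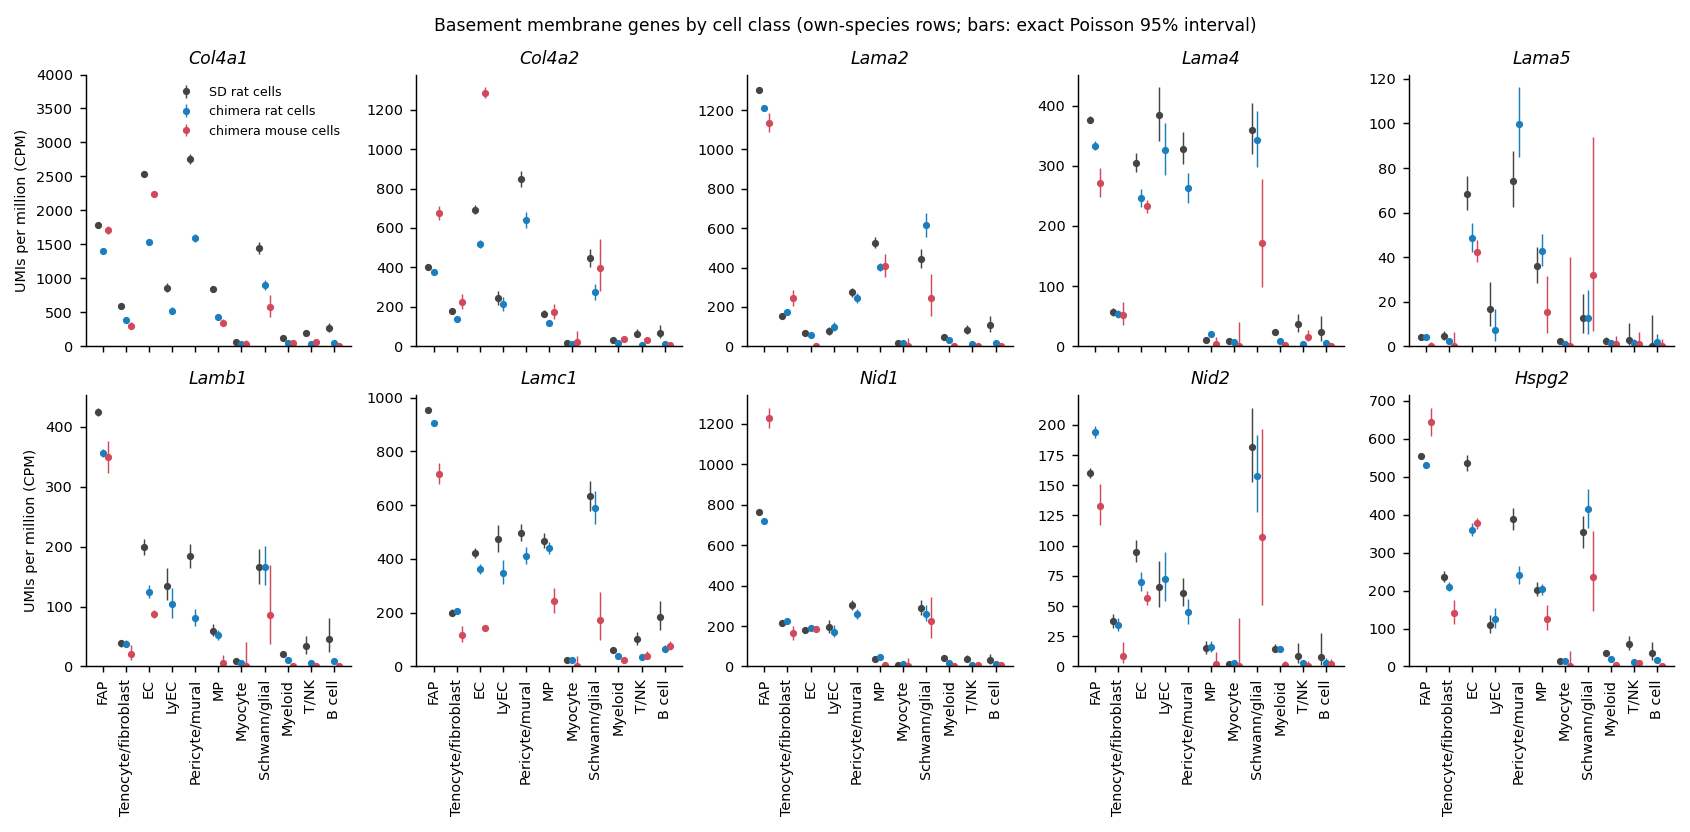
CPM (vertical axis, a scale of its own in each panel) of each gene in each cell class of at least 20 cells, as points for SD rat, chimera rat and chimera mouse cells with exact 95% intervals of counting error. In SD rat cells Col4a1 and Col4a2 are highest in mural cells and ECs and Lama2, Lamb1, Lamc1 and Nid1 in FAPs, and myocytes are low in every panel.

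Collagen IV was highest in the vessel wall. Col4a1, a chain of the collagen IV trimer, reached 2756 CPM (2681 to 2832) in SD rat mural cells, 2538 (2492 to 2584) in ECs and 1778 (1765 to 1792) in FAPs. In chimera rat cells the same order held at 1595 (1535 to 1657), 1536 (1500.2 to 1573) and 1398 (1384 to 1412) CPM, where mural cells and ECs overlapped. Mouse ECs held 2237 (2203 to 2271) CPM and mouse FAPs 1712 (1654 to 1773), without overlap. Schwann cells followed in all 3 populations, at 1443, 899.8 and 577 CPM. MPs held 839, 429 and 347 CPM, and LyECs 863 and 520.2 CPM, less than the blood ECs of their library. The mural classes also held EC markers, with 3 or more such UMIs in 41.5% of SD rat and 28.7% of chimera rat mural barcodes. The part of these barcodes in the order of mural cells and ECs was not tested.

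With each cell thinned to 1000 UMIs, a Col4a1 UMI was found in 87.5% of SD rat mural cells, 79.4% of ECs, 64.8% of FAPs, 55.8% of MPs and 13.2% of B cells. Thinning left out 444 SD rat ECs with fewer UMIs, since ECs there had a median of 1873 UMIs against 10929 in FAPs. The unthinned shares were 91.6% in mural cells, 80.8% in ECs and 96.2% in FAPs. The order of the thinned shares was that of the CPM.

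Col4a2, the partner chain, kept the same leading classes. It stood at 848 CPM (807 to 891) in SD rat mural cells, 694 (669.8 to 718) in ECs and 401 (395 to 408) in FAPs, and at 640.1, 517 and 377 CPM in chimera rat cells. Mouse ECs held 1287 (1261 to 1313) CPM and mouse FAPs 675 (638 to 713). Across the 12 SD rat classes, log2 levels of Col4a1 and Col4a2 had a Pearson correlation of 0.99, the highest of any pair with Col4a1, as a description over classes of 1 library. In thinned SD rat ECs, 49.1% of cells with Col4a1 also held Col4a2, against 21.3% of those without. In FAPs these shares were 37.7% and 17%, in chimera rat ECs 38.5% and 25.6%, and in mouse ECs 71.2% and 44.3%. As counts of 3′ ends, which set a share between classes but not 1 chain above the other, Col4a1 made up 81.6% of the Col4a1 and Col4a2 UMIs in SD rat FAPs and 78.5% in ECs. It made up 78.7% and 74.8% in chimera rat cells and 71.7% and 63.5% in mouse cells, which are counted on other gene models.

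The 3 laminin alpha chains divided the classes. Lama2 was highest in FAPs, followed by MPs or Schwann cells, and lower in endothelium. Lama4 was shared by FAPs, Schwann cells, mural cells and both kinds of endothelium and was low in MPs. Lama5 was highest in mural cells and ECs. Lama2 took a larger share of these chains' UMIs in FAPs and MPs than in ECs in all 3 populations.

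Lama2 was highest in FAPs, at 1303 CPM (1291 to 1315) in SD rat, 1210.4 (1198 to 1223) in chimera rat and 1134 (1086 to 1183) in chimera mouse cells. MPs held 527 (498 to 558), 402 (381 to 424) and 408 (352 to 471) CPM, and Schwann cells 443 (397 to 492), 615 (555 to 679) and 246 (156 to 369). ECs lay at 68.9 (61.6 to 76.9), 55.6 (48.9 to 62.9) and 1.36 (0.653 to 2.5) CPM. The SD rat ECs lay below their own library's B cells and above them once the single barcode named above was left out. Mouse ECs held 10 mouse-row UMIs over 1082 cells. Thinned, Lama2 was found in 62.4% of SD rat FAPs, 42.7% of MPs, 3.46% of ECs and 1.47% of B cells.

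Lama4, the alpha chain common in vessel and nerve sheaths, reached 384 CPM (341 to 430.3) in SD rat LyECs and 377 (371 to 383) in FAPs, which overlapped. Schwann cells held 359.7, mural cells 329 and ECs 305 CPM. In chimera rat cells these classes lay between 246 CPM in ECs and 342 CPM in Schwann cells, and FAPs and Schwann cells overlapped. Mouse FAPs held 271 (248 to 296) and mouse ECs 232 (222 to 244) CPM. MPs stood at 10.9, 19.5 and 4.34 CPM in the 3 populations, the first under the 23.1 CPM of SD rat B cells.

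Lama5, an alpha chain of endothelial and epithelial sheets, stood at 74.1 CPM (62.3 to 87.5) in SD rat mural cells and 68.3 (60.9 to 76.2) in ECs, which overlapped. Chimera rat mural cells held 99.7 (85.1 to 116) and ECs 48.4 (42.1 to 55.3) CPM, without overlap. Mouse ECs held 42.5 (37.9 to 47.5) CPM. MPs held 35.9 (28.5 to 44.5) and 42.8 (36.2 to 50.3) CPM in SD rat and chimera rat cells. FAPs held only 3.94 and 4.18 CPM, and none of the 125 mouse FAPs had a mouse-row UMI, which allows up to 1.61 CPM.

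**Figure D2:**
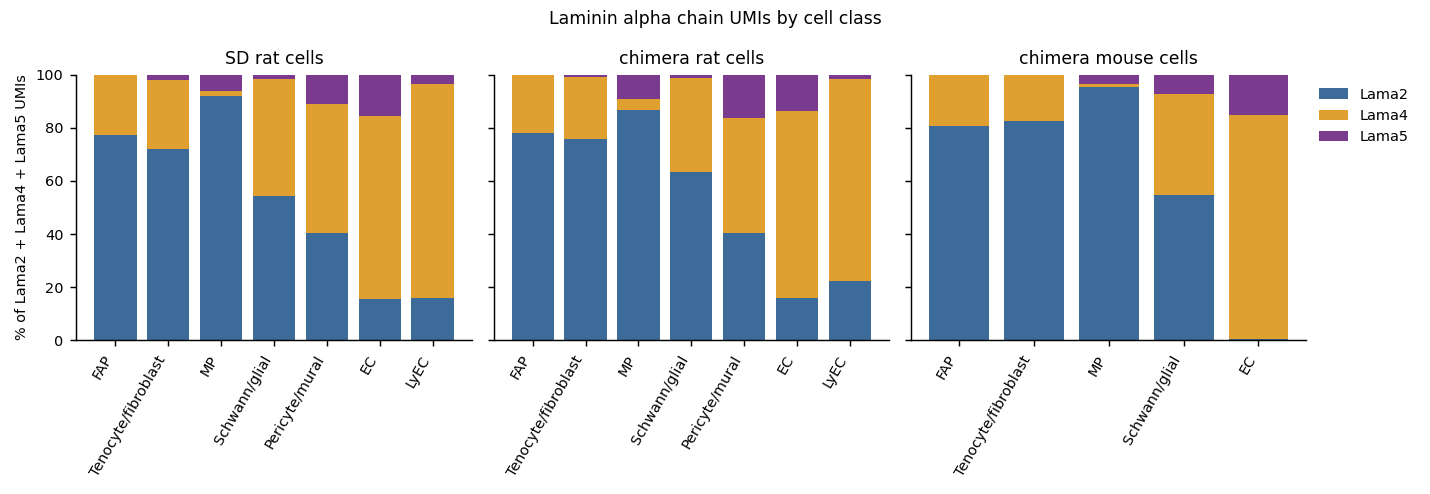
Share of Lama2, Lama4 and Lama5 among their summed UMIs (percent, vertical axis) in each cell class, for the 3 populations; bars stack to the whole. The 3′ counts set a share between classes and not 1 chain above another: the Lama2 share is larger in FAPs and MPs than in ECs, where the Lama4 share is larger.

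As shares of the 3 alpha chains, to be read between classes and not between chains, Lama2 made up 77.4% (77 to 77.7 over 61179 UMIs) in SD rat FAPs, 91.8% (90.2 to 93.3 over 1311 UMIs) in MPs, 54.3% (50.4 to 58.2 over 637 UMIs) in Schwann cells and 40.5% (37.7 to 43.2 over 1268 UMIs) in mural cells. In chimera rat cells these shares were 78.2%, 86.6%, 63.4% and 40.2%, and in mouse FAPs, MPs and Schwann cells 80.7%, 95.4% and 54.8%. In ECs, Lama4 made up 69% (67 to 71 over 2055 UMIs) in SD rat, 70.3% (67.9 to 72.6 over 1555 UMIs) in chimera rat and 84.1% (82.5 to 85.7 over 2029 UMIs) in mouse cells. Lama2 took 15.6%, 15.9% and 0.493% of EC chains. Lama5 took 15.4%, 13.8% and 15.4%.

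The beta and gamma chains pair with every one of these alpha chains. Lamb1, the beta chain, was highest in FAPs at 425 CPM (418 to 432), 356 (349 to 363) and 349 (323 to 377). ECs held 199, 125 and 87.6 CPM, and Schwann cells 165, 166 and 85.5 CPM. Lamc1, the gamma chain, was highest in FAPs at 952 CPM (942 to 962), 906 (895 to 917) and 716 (678 to 755). Schwann cells, LyECs, mural cells, MPs and ECs of SD rat followed between 422 and 632 CPM. Mouse ECs held Lamc1 at 142 (134 to 151) CPM.

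The linkers differed among themselves. Nid1, the nidogen that joins laminin to collagen IV, was highest in FAPs, at 762 CPM (753 to 771), 719 (709.7 to 729) and 1229 (1179 to 1280.3). It was between 179.6 and 303 CPM in SD rat ECs, LyECs, Schwann cells and mural cells and 37.2 CPM in MPs. Nid2, its paralog, stood at 182 CPM (153 to 214) in SD rat Schwann cells and 160.1 (156 to 164) in FAPs, which overlapped. The 2 classes also overlapped in chimera rat cells, at 158 and 194 CPM, and in mouse cells, at 107 and 133 CPM. The rat Hspg2 row, perlecan, was at 554 CPM (546 to 562) in SD rat FAPs and 535 (515 to 557) in ECs, which overlapped, and at 531 (523 to 539.8) and 360.4 (343 to 378) in chimera rat cells, which did not. Mouse Hspg2 was at 645 (609 to 682) CPM in FAPs and 378 (364 to 392) in ECs.

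Counted over the members, the highest level was in a vascular class (EC, LyEC or mural) for 4 of 9 rat rows in SD rat, namely Col4a1, Col4a2, Lama4 and Lama5. Of all 12048 rat genes counted there, 24.2% had their highest level in a vascular class. It was so for 3 of 9 in chimera rat cells, with Lama4 then in Schwann cells, against 24.7% of all genes. It was so for 3 of 10 mouse rows, Col4a1, Col4a2 and Lama5, against 13.4%, where ECs were the only vascular class. In FAPs, 4 of 9, 5 of 9 and 7 of 10 members were highest, against 5.44%, 6.50% and 9.14% of all genes. In tenocytes 0 members were highest, against 4.82%, 4.52% and 5.59% of all genes. The members outside both counts were Nid2 in SD rat and Lama4 in chimera rat cells, both highest in Schwann cells.

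Levels also varied within classes. FAPs of SD rat fell into 9 clusters, and 3 of these held the most Col4a1. Cluster 2 (636 cells, led by Cxcl9, Grm8, Agbl1) held Col4a1 at 3649 (3605 to 3693) CPM, cluster 4 (522 cells, Agbl1, Grm8, Scin) at 2914 (2867 to 2961) and cluster 8 (65 cells, Apod, Agt, Opcml) at 3650.2 (3509 to 3796). Clusters 1 (685 cells, Il31ra, Rgs4, Mmp27), 3 (563 cells, Gap43, C4b, Dpp4) and 6 (116 cells, Apod, Ramp1, Tenm2) held 723, 730.5 and 478 CPM. Clusters 2, 4 and 8 thus lay above SD rat mural cells for Col4a1 and clusters 1, 3 and 6 below MPs, with the other 3 clusters in between.

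Clusters 2, 4 and 8 also led for Lama2, Lamb1 and Hspg2. Lama2 was at 2015, 2109 and 2474 CPM in clusters 2, 4 and 8 against 857 to 933 CPM in clusters 1, 3 and 6. Lamb1 was at 787, 691 and 689 CPM against 187 to 292, and Hspg2 at 1021, 811 and 838 CPM against 256 to 372. Nid1 and Lama4 were set apart less or not at all. Nid1 was at 855 and 949 CPM in clusters 3 and 6, against 1015 in cluster 4. Lama4 was at 453 CPM in cluster 3, against 493 in cluster 2 and 185 in cluster 8.

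Clusters with Grm8 among their leading genes were high in Col4a1 in the other populations too. In chimera rat FAPs, cluster 1 (570 cells, Grm8, Dlk1, AC125757.1) held 2603 (2561 to 2646) CPM and cluster 2 (538 cells, Tac3, Grm8, AC125757.1) 2295 (2257 to 2334), against 382 CPM in cluster 6 (243 cells, Gap43, Ca8, Efhd1) and 313 in cluster 7 (118 cells, Apod, Tenm2, Fgf14). Among mouse FAPs, cluster 2 (37 cells, Ifit1, Cxcl9, Grm8) held 3286 (3137 to 3439) CPM and cluster 4 (15 cells, Ifit1, Saa1, Rasgrp2) 3405 (3149.8 to 3675), against 700.1 in cluster 1 (42 cells, Prg4, Sfrp2, Sfrp4) and 506 in cluster 3. These clusters were made from the same cells and are given as a description.

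**Figure D3:**
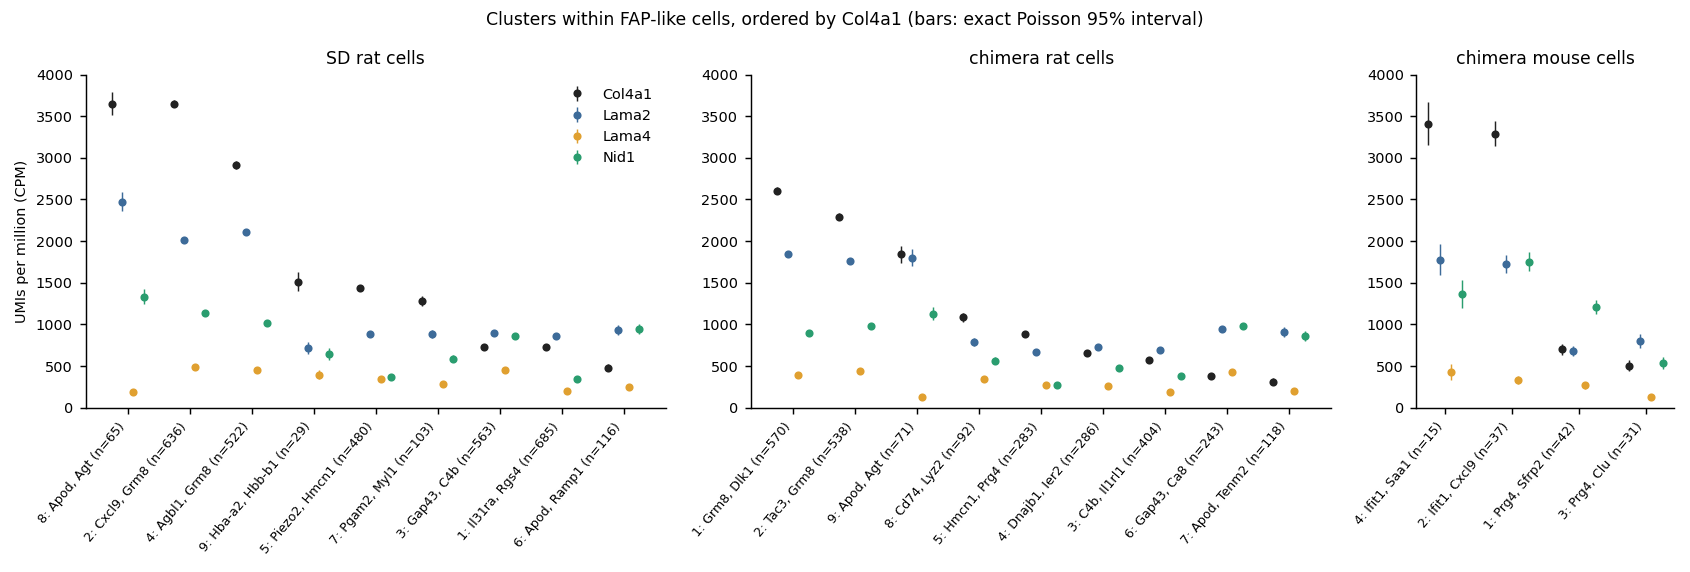
CPM (vertical axis) of Col4a1, Lama2, Lama4 and Nid1 in the clusters of FAP-like cells of each population, ordered by Col4a1 and labelled with their number, leading genes and cells; bars are exact 95% intervals of counting error. Lama2 is also highest in the clusters at the left of each panel, where Col4a1 is highest, while Lama4 shows no such order.

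Col4a1 varied between the clusters of ECs. In SD rat, clusters with capillary markers held Col4a1 at 3209 (3137 to 3282) CPM (cluster 1, 520 cells) and 3571 (3254 to 3909.6) CPM (cluster 4, 64 cells). The venous cluster (52 cells, Selp, Vcam1, Ackr1) held 666 (585 to 755) CPM and the arterial one, of 10 cells, 556 (391 to 766) CPM. In chimera rat ECs the venous cluster led by Ackr1, Selp, Plvap held 752 and the arterial one led by Ceacam1, Pcsk5, Slc8a1 479 CPM, against 1304 CPM in the capillary cluster. That capillary cluster lay below the 1536 CPM of all chimera rat ECs, so other clusters, not given here, held more. In mouse ECs the venous cluster held 886 CPM and the arterial one led by Mgp, Cytl1, Clu 562 CPM, against 3397 CPM in cluster 3 (Ptchd4, Ccdc85a, Wdr95). No mouse capillary value is given here, so capillary clusters are set beside the others in the rat populations only.

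Another mouse cluster that took the arterial name held Col4a1 at 2020 CPM. For the mouse clusters paired here, the order of Lama5 was opposite to that of Col4a1, while the chimera rat pair set no order. Lama5 was at 99.2 (51.2 to 173) CPM in the chimera rat arterial cluster against 40.9 (28.5 to 56.9) in the capillary one, which overlapped. In mouse ECs it was at 107 (66.4 to 164) CPM in the arterial cluster led by Mgp, Cytl1, Clu against 27.4 (19 to 38.3) in the venous one. The cluster set beside the arterial one thus differs between the species, and Lama5 of the other mouse arterial cluster is not given here. In SD rat the arterial cluster held 45.1 (9.3 to 132) CPM, too few counts to place it. Of the 320 Lama2 UMIs in SD rat ECs, 224 stood in cluster 7, 41 cells led by Abi3bp, Vcan, Lama2, and the capillary cluster 1 held Lama2 at 13.4 CPM. Vcan, a matrix gene of fibroblasts, is among the leading genes of that cluster.

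Pericyte clusters held more Col4a1 than the smooth muscle clusters of their library, while Lama5 was higher in some smooth muscle clusters only. The SD rat pericyte cluster held Col4a1 at 3468 (3285 to 3658) CPM and the smooth muscle clusters 2 and 5 at 1972 (1838 to 2112) and 2518 (2293 to 2759.9). The chimera rat pericyte clusters held 2236 (2072 to 2410.4) and 2757 (2553 to 2973) CPM and its smooth muscle clusters 876 (802 to 954) and 1437 (1317 to 1565). Lama5 was at 12.9 CPM in SD rat pericytes against 139 in smooth muscle cluster 2, and its level in cluster 5 is not given here. In the chimera rat, 1 smooth muscle cluster held 202 CPM, 1 held 49.2 CPM, and the pericyte clusters held 49.1 and 0 CPM. The second smooth muscle cluster therefore did not stand above both pericyte clusters.

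Of 45 other basement membrane genes in a list set beside the members, 39 had at least 100 UMIs in SD rat classes. Of these, 12 were highest in a vascular class and 14 in FAPs, against 24.2% and 5.44% of all genes. The counts were 15 and 12 of 37 in chimera rat cells (24.7% and 6.50% of all genes) and 4 and 15 of 33 in mouse cells (13.4% and 9.14%). By group in SD rat, the other network chains counted 7, of which 5 were highest in FAPs and 1 in a vascular class, among them Col4a4 at 264 CPM in FAPs against 12.5 in ECs. Of the 16 other linkers and matrix genes, 6 were highest in a vascular class and 6 in FAPs. Tinagl1 was at 244 CPM in mural cells, 96.0 in Schwann cells and 1.73 in FAPs, Agrn, which gathers acetylcholine receptors, at 127 CPM in LyECs, and Smoc2 at 742 CPM in FAPs. Sparc, which binds collagen IV, was at 20440.5 CPM in tenocytes.

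Of the 11 genes of collagen IV assembly and cross-linking, 5 were highest in tenocytes, as were 4.82% of all genes, 3 in FAPs and 1 in ECs. The last was Pxdn, the peroxidase that cross-links collagen IV, at 332 CPM in ECs against 168 in FAPs. Of the 5 laminin receptors counted, 4 were highest in a vascular class (24.2% of all genes) and 0 in FAPs (5.44%), counts too small to set the receptors apart. Dag1, dystroglycan, which binds Lama2, was highest in MPs at 526 CPM and stood at 111 CPM in FAPs. Bcam, a receptor for Lama5, was at 266 CPM in mural cells and 226 in ECs against 3.8 in FAPs. In myocytes and blood cells of SD rat the listed genes exceeded the median of the other classes by a log2 difference of at most 1.58, with Col7a1 at 17.5 CPM in myocytes and Loxl2 at 38.5 CPM in B cells.

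The genes outside both lists whose log2 levels across the 12 SD rat classes were most like Col4a1 were Tfpi2, Nbeal1 and Eif2ak2 (Pearson 0.96, 0.96 and 0.96). For Lama2 they were Ank2, Gpc3 and Col5a3 (0.96, 0.95 and 0.93), for Lama4 Akap12, Colgalt2 and the unnamed gene ENSRNOG00000056651 (0.95, 0.94 and 0.93), and for Lama5 Tmcc3, Cdh13 and Slc22a5 (0.96, 0.95 and 0.95). Among the members, Lama2 and Lama5 had the lowest value, 0.24. The classes share a library and are not independent.

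The chimera's rat cells were then set beside SD rat cells, class by class. Ratios are log2 of chimera rat over SD rat CPM, with 0.5 counts added, for genes with at least 100 UMIs in both together, and 2-fold was taken as apart. Col4a1 was lower in the chimera's rat cells in all 7 classes compared when rat rows alone were counted, though in myocytes the interval held 0 once both rows were added, while the laminin, nidogen and perlecan genes of FAPs differed little. Most members stayed within 2-fold. The 14 myocyte markers were lower in the chimera's rat cells in each non-myocyte class compared, and so moved with Col4a1. They stood at 9063 CPM in SD rat and 4955 in chimera rat FAPs, at 12586 and 6861 in tenocytes, at 28302 and 9897 in ECs, at 22874 and 15317 in mural cells, at 17341 and 7169 in MPs and at 15081 and 6039 in Schwann cells. Their part in the ratios was not tested.

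In FAPs, 0 of 9 members were 2-fold apart, against 3.62% of all 11251 genes tested. Col4a1 stood at a log2 ratio of -0.35 (-0.37 to -0.33) and Nid2 at 0.28 (0.23 to 0.33), and the other 7 lay between -0.26 (Lamb1) and 0.09 (Lama5). The median over members was -0.09 and over all genes 0.08. In tenocytes, 0 of 8 were apart (3.07% of all genes), with Col4a1 at -0.60 (-0.69 to -0.52).

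In ECs, 0 of 9 were apart, against 6.15% of all genes. Col4a1 was at -0.72 (-0.77 to -0.68), Lamb1 at -0.67 (-0.83 to -0.52), Lama5 at -0.50 (-0.75 to -0.24) and Col4a2 at -0.42 (-0.50 to -0.35), while Nid1 was at 0.09 (-0.05 to 0.23). The median was -0.42 over members and 0.01 over all genes. The rat Hspg2 row was at -0.57 (-0.66 to -0.48).

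In mural cells, 1 of 9 was apart (11.2% of all genes). It was Lamb1, at 183 CPM in SD rat and 81 CPM in chimera rat cells, a log2 ratio of -1.18 (-1.48 to -0.89). The class's own 11 markers stood at 6293 CPM in SD rat and 14697 CPM in chimera rat cells, and their part in the ratios of this class was not tested. The 13 EC markers stood at 3346 CPM in the SD rat mural class and 412 CPM in that of the chimera, and with barcodes that held both vascular marker lists left out the ratio was -0.52. Col4a1 was at -0.79 (-0.86 to -0.72) and Lama5 at 0.43 (0.09 to 0.76), with a range of 0.00 to 0.43 over the alternative settings.

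In MPs, 0 of 7 were apart (2.88% of all genes), with Col4a1 at -0.97 (-1.07 to -0.87), close to 2-fold, Lama2 at -0.39 (-0.50 to -0.28) and Lamc1 at -0.09 (-0.20 to 0.03). In Schwann cells, 0 of 8 were apart (5.11%), with Col4a1 at -0.68 (-0.83 to -0.53), Col4a2 at -0.70 (-0.97 to -0.43) and Lama2, in the other direction, at 0.47 (0.26 to 0.69). In myocytes, 0 of 5 were apart (6.57%), with Col4a1 at -0.65 (-0.92 to -0.39), where SD rat levels lay under those of lymphocytes.

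**Figure D4:**
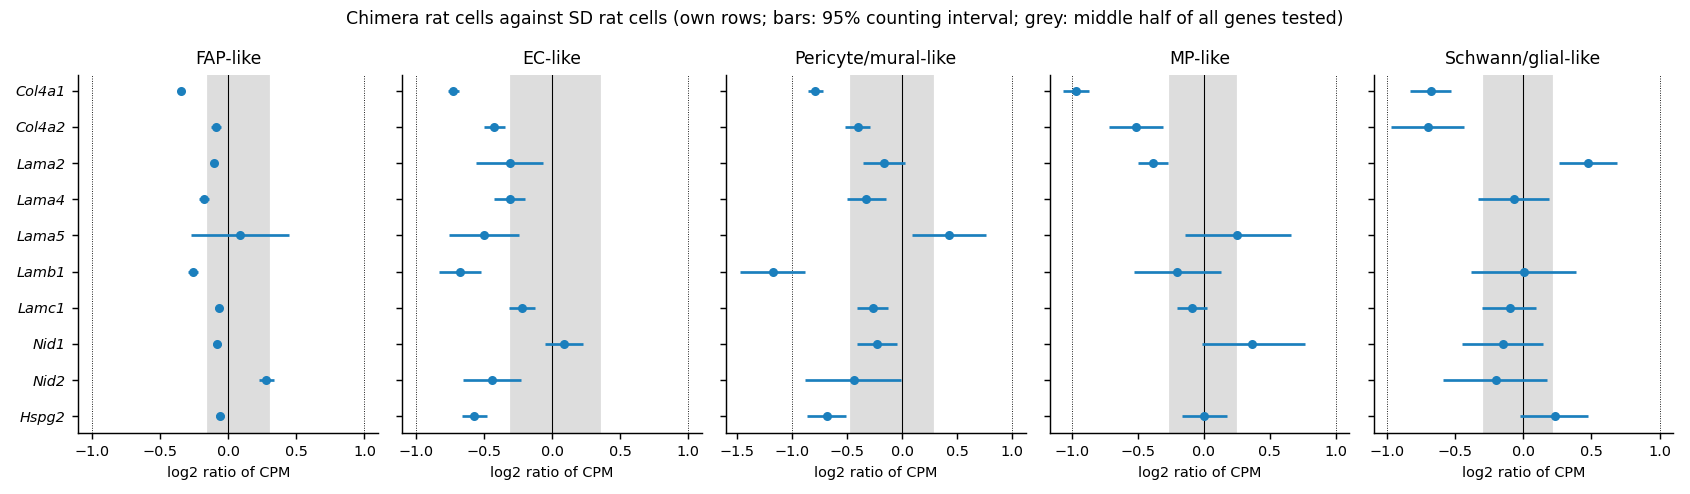
Log2 ratio of CPM in chimera rat cells over SD rat cells (horizontal axis) for each gene in 5 classes, with 95% intervals of counting error, the interquartile range of all genes tested in grey and 2-fold as dotted lines. Col4a1 lies below 0 in each class shown, and Lamb1 in mural cells is the one point past 2-fold.

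Reads of a chimera rat cell can land on the mouse row of the same gene, which the SD rat reference does not hold. The mouse row of a rat cell can also hold free RNA of mouse cells. These sources were not told apart, and adding the rows adds both. Over the classes compared, the share of Col4a1 UMIs on the mouse row ran from 4.37% in FAPs to 33.7% in myocytes. In chimera rat cells, 5.47% of Col4a1 UMIs and 6.3% of Col4a2 UMIs were on the mouse row, against 0.636% for Lamb1 and 1.14% for Lama2, and the median over 11685 names was 4.4%. With the rows added, Col4a1 was at -0.72 in ECs, -0.37 in FAPs and -0.93 in MPs, hardly moved. In myocytes it was at -0.12 (-0.36 to 0.11), since 33.7% of its Col4a1 UMIs were on the mouse row there. SD rat lymphocytes also held more Col4a1 than those of the chimera (above), and what part of the Col4a1 difference this makes was not tested in each class.

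Mouse and rat cells of the chimera grew in 1 animal and 1 library. For this comparison both rows of a gene were added in each group, and CPM are per 1e6 UMIs of the 16109 names with 1 row per species. The added row can also hold free RNA of the other species, which was not separated. Species, the iPSC genotype and the gene models that reads were counted on cannot be told apart here. Col4a2 was higher in mouse cells in all 4 classes below, and Nid1 was higher in mouse FAPs and lower in the few mouse MPs. Lama2 was almost absent from mouse ECs and lower there than in rat ECs. That difference was within 2-fold once barcodes with both vascular marker lists were left out.

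In FAPs (125 mouse and 2605 rat cells), 1 of 9 members was 2-fold apart, against 30.7% of all 9559 names tested. It was Lama5, with 0 UMIs in mouse and 128 in rat FAPs. The rat level of 5.02 CPM was near the 4.75 CPM of the chimera's rat B cells, and the call was lost with 15 components (-0.76), at least 1000 UMIs per cell (-0.56) or 10 CPM added (-0.59). Just inside 2-fold, Col4a2 was at 861 CPM in mouse and 446 in rat FAPs, a log2 ratio of 0.95 (0.86 to 1.03), and Nid1 at 1552 and 813 CPM, a ratio of 0.93 (0.87 to 1.00). Col4a1 was at 0.41 (0.36 to 0.46), Hspg2 with both rows added at 0.46 (0.37 to 0.54), Lama2 at 0.06 (-0.01 to 0.12) and Lamb1 at 0.15 (0.03 to 0.26).

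In ECs (1082 mouse and 781 rat cells), 3 of 9 were apart, against 28.0% of all names. Col4a2 was at 1734 CPM in mouse and 659 in rat ECs, a ratio of 1.39 (1.33 to 1.46). Lamc1 was at 208 and 447 CPM, a ratio of -1.10 (-1.21 to -0.99). Lama2 was at 13.7 and 69.1 CPM, a ratio of -2.33 (-2.72 to -1.96), and 66 of its 76 UMIs in mouse ECs were on the rat row. With barcodes that held both vascular marker lists left out, its ratio was -0.81, within 2-fold. Col4a1 was at 0.63 (0.59 to 0.67), while Lama4 at 0.04 (-0.07 to 0.14) and Lama5 at -0.04 (-0.29 to 0.22) had intervals that held 0.

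In MPs (47 mouse cells), 3 of 7 were apart, against 28.0% of all names, all lower in mouse cells. They were Lama5 at -1.22 (-2.65 to -0.23), Lamb1 at -2.26 (-4.32 to -1.05) and Nid1 at -2.15 (-4.21 to -0.93), on 7, 4 and 4 mouse-cell UMIs. With a mean over cells the Nid1 ratio was -0.94, within 2-fold. Lama2 and Col4a1 were at 0.19 (-0.04 to 0.41) and -0.20 (-0.45 to 0.02). In Schwann cells (25 mouse cells), 2 of 8 were apart (30.6% of all names), Lama2 at -1.19 (-1.89 to -0.61) and Lamc1 at -1.27 (-2.01 to -0.67). Col4a2 was at 0.61 (0.24 to 0.95) in MPs and 0.66 (0.11 to 1.15) in Schwann cells. The background in these 4 classes ran from 28.0% to 30.7% of names, and the counts of 1 to 3 members do not set the genes apart from others.

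**Figure D5:**
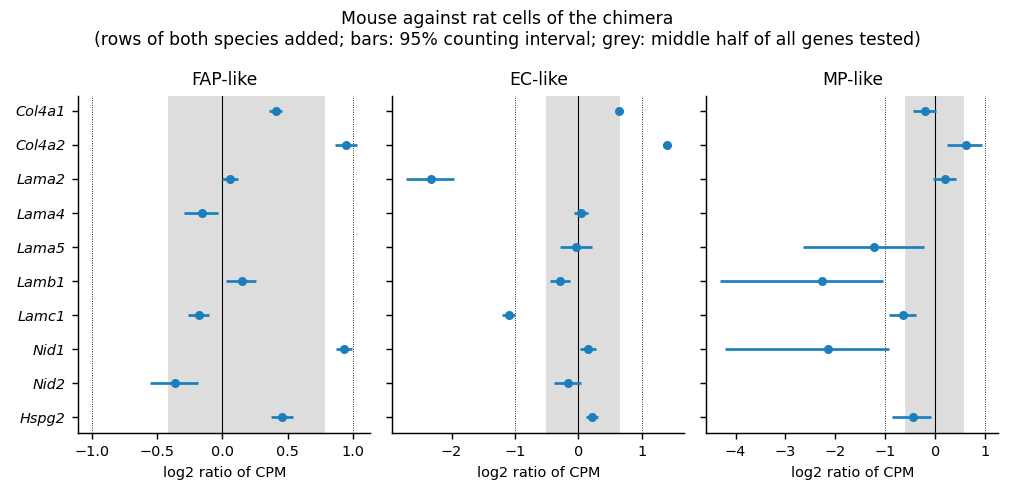
Log2 ratio of CPM in mouse over rat cells of the chimera (horizontal axis) for the genes tested in FAPs, ECs and MPs, with 95% intervals of counting error, the interquartile range of all names tested in grey and 2-fold as dotted lines; Lama5 in FAPs, with 0 UMIs in mouse cells, is not drawn. Col4a2 lies above 0 in all 3 classes, and Lama2 in ECs lies at -2.33.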

How the data were processed

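The authors made the deposited matrices with Cell Ranger 7.1.0 (per the submitters' processing notes), as raw UMI counts per gene and barcode, not normalized. The chimera was counted on a combined rat (mRatBN7.2) and mouse (GRCm39) reference and the SD rat on rat alone, so reads of 1 gene can divide between rows only in the chimera. Barcodes with at least 500 UMIs, 200 genes and at most 20% mitochondrial UMIs were kept, and doublets predicted by Scrublet in scanpy 1.11.5 were removed (444 of 12174 in the chimera and 164 of 8980 in SD rat). The 8% expected doublet rate was an assumption.

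Cells of each population were clustered with Leiden on 2000 variable genes, 30 components and 15 neighbours at resolution 1, without the members and the 45 other basement membrane genes. A cluster took a name from at least 3 raised markers (in at least 10% of cells and 2-fold higher with 10 CPM added), and unnamed clusters of at least 40 cells were clustered once more. How markers were scored was settled after the clusters were seen. Clusters that stayed unnamed, cycling clusters and mixed-species barcodes entered no comparison. The members and lists were chosen with earlier results of these data known.

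UMIs were summed per class and divided by the class total. Intervals are exact Poisson for CPM, and exact Clopper-Pearson binomial for shares and, transformed, for ratios. With 1 library per group no test was possible. A floor of 3 counts was used where no UMI was found. The ratio script was tested on simulated data. Named genes were the members, the listed gene with the largest excess in each SD rat class, the 3 genes most like 4 of the members, and each cluster's leading genes. Beyond these, Col4a4, Pxdn and Vcan were named after their values were seen. Promoter windows are from RefSeq, build GRCr8. Alternatives changed the filters, species thresholds, clustering, rows counted, scaling and count minimum.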

Additional observations from a re-analysis of the deposited data

Results flagged for a closer look

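For 3 genes the chimera rat and SD rat ratios had opposite signs in different classes, with intervals that did not hold 0. These differences between classes were not tested, since each rests on 1 library per group. Lama2 was higher in the chimera's Schwann cells (log2 ratio 0.47, 0.26 to 0.69) and lower in its MPs (-0.39, -0.50 to -0.28), a difference of 0.86. Lama5 was higher in mural cells (0.43, 0.09 to 0.76) and lower in ECs (-0.50, -0.75 to -0.24), a difference of 0.92, but over the alternative settings the EC ratio ran from -0.68 to 0.13 and the mural ratio from 0.00 to 0.43, so that the opposite signs were not kept. Nid2 was higher in FAPs (0.28, 0.23 to 0.33) and lower in mural cells (-0.44, -0.89 to -0.01), a difference of 0.72, but the FAP ratio ran from -0.16 to 0.29 and the mural ratio from -0.77 to 0.46, so that both signs turned.

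Between mouse and rat cells of the chimera, Col4a1 was higher in mouse ECs (0.63, 0.59 to 0.67) and lower in the 25 mouse Schwann cells (-0.45, -0.87 to -0.07), a difference of 1.08. Lamb1 was at 0.15 (0.03 to 0.26) in FAPs and -2.26 (-4.32 to -1.05) in MPs, a difference of 2.41, with a range of -0.12 to 0.27 in FAPs over the alternatives. Nid1 was at 0.93 (0.87 to 1.00) in FAPs and -2.15 (-4.21 to -0.93) in MPs, a difference of 3.08, and the MP ratio was -0.94 with a mean over cells. The MP values rest on 4 UMIs of each gene in 47 mouse cells. These differences were not tested either.

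The 1653 chimera barcodes between the species thresholds, used in no comparison, held Col4a1 at 1272 CPM over both rows, with a median of 4644 UMIs per barcode. Of their Col4a1 UMIs, 55.8% were on the mouse row, against 50.7% of all their UMIs. The mouse row held 68.5% of Col4a2 UMIs, 43.1% of Lama4, 32.7% of Lamb1, 23.8% of Lamc1 and 7.55% of Lama2.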

How the results depend on the processing

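No paired analysis was possible because each group is 1 library. Counts of members at their highest level in a vascular class stayed at 3 or 4 under the 14 alternatives run for them in rat cells and the 13 in mouse cells; the count minimum and the added 10 CPM were not varied for them. Counts of members 2-fold apart between chimera rat and SD rat cells stayed at 0 in FAPs and Schwann cells. In ECs the count went from 0 to 1 with doublets kept, with the rat cells of both libraries clustered together, or with barcodes holding both vascular marker lists left out. In MPs it went from 0 to 1 with 15 components, at least 1000 UMIs, the lymphocyte level subtracted, a mean over cells, both rows added, joint clustering, resolution 0.5 or species thresholds of 90% and 10%. It went to 4 with cycling clusters counted in, where a cycling cluster of 121 cells joined the MPs of SD rat only. The cycling cluster of the chimera's rat cells, of 117 cells, was named FAP, so the MP classes of that setting are unlike. In myocytes it went from 0 to 1 with a minimum of 20 UMIs, a mean over cells, joint clustering or 90% and 10%. In mural cells it went from 1 to 0 with 15 components, at least 1000 UMIs, both-marker barcodes out, a minimum of 500 UMIs, a mean over cells, 10% mitochondrial UMIs, doublets kept or joint clustering, and to 2 with the lymphocyte level subtracted or 90% and 10%. In tenocytes it went from 0 to 1 with a minimum of 20 UMIs, to 3 with the lymphocyte level subtracted and to 2 with 90% and 10%. Between mouse and rat cells, the FAP count went from 1 to 0 with 15 components, at least 1000 UMIs, a minimum of 500 UMIs, the lymphocyte level subtracted or 10 CPM added. The MP count went from 3 to 5 with a minimum of 20 UMIs and to 0 with 500, and the Schwann count from 2 to 0 with 500, which tests fewer genes. The cause was not tested for the others. Leaving out both-marker barcodes and subtracting the lymphocyte level were chosen after seeing the data. The subtraction also changed the total that levels were divided by, so its counts do not show the effect of background alone. With it, 38.2% of all genes tested were 2-fold apart in mural cells, 24.4% in MPs and 23.5% in tenocytes. Shares of all genes moved in other settings too. With 90% and 10% they were 24.3% in mural cells, 12.2% in tenocytes, 8.91% in myocytes and 4.83% in MPs. With cycling clusters counted in, 9.74% of genes were apart in MPs. A minimum of 20 UMIs gave 12.2% in myocytes, 6.93% in tenocytes and 36.6% in MPs between mouse and rat cells. In ECs the changed counts stood beside 4.38% to 6.66% of all genes. Mural counts of 0 stood beside 4.14% to 13.3%.

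Of 1398 log2 ratios recomputed over members, classes and alternatives, 1194 stayed within the counting interval and 204 moved beyond it. Of the 1398, 12 lost a 2-fold call, 25 gained one and 78 changed sign, 0 of them 2-fold apart before. The 1194 include 88 values with a minimum of 20 UMIs and 59 with 500. These could not move, since the minimum only sets which genes are tested. With species thresholds of 90% and 10%, 62 values were left, of which 18 stayed, 44 moved and 14 changed sign. Col4a1 in chimera rat over SD rat cells ranged from -0.95 to -0.55 in ECs, -0.67 to -0.34 in FAPs, -1.55 to -0.90 in MPs, -0.87 to -0.64 in Schwann cells, -1.49 to -0.53 in mural cells, -1.06 to -0.17 in tenocytes and -1.18 to 0.17 in myocytes, where its sign changed. Lamb1 in mural cells ranged from -1.44 to -0.52, and Lama2 in mouse over rat ECs from -5.19 to -0.81. Few cells limit the values of the 47 mouse MPs and 25 mouse Schwann cells, and depth those of SD rat ECs, with a median of 1873 UMIs.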
